A study of Mus musculus with 23 samples.

Results

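The genes Fkbp5, Sgk1, and Per1 are described here by their DNA methylation in the prefrontal cortex of 23 mice. Their CpG regions are the 150 bp windows with MBD-seq values inside 3 ranges of the mouse genome (GRCm38), drawn around each gene from 28.393 to 28.523 Mb of chromosome 17 for Fkbp5, from 21.877 to 22.005 Mb of chromosome 10 for Sgk1, and from 69.09 to 69.115 Mb of chromosome 11 for Per1. The ranges held 12 of the 210191 windows measured, with 7 in Fkbp5, 1 in Sgk1, and 4 in Per1. The ranges were set by gene position alone, and the 3 genes were picked with earlier results of these data known.

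In MBD-seq, DNA fragments with methylated CpGs are captured by the MBD2 protein and sequenced, so the number of reads on a window rises with its methylation and with its number of CpGs. The values are log2 RPKM, the log2 of reads scaled to the length of the window and the size of the library. The study asked whether exposures that model Gulf War illness alter DNA methylation in a manner that depends on strain. The conditions were control mice of C57BL/6J (B6, n = 5, 2 females and 3 males, all 145 days old), CORT + DFP mice of B6 (n = 6, 3 of each sex, 145 to 226 days), and control and CORT + DFP mice of DBA/2J (D2, n = 6 in each, 3 of each sex, 147 to 196 days). CORT + DFP mice drank corticosterone, the main glucocorticoid of rodents (20 mg%), for 7 days, were then injected with 4.0 mg per kg of diisopropyl fluorophosphate (DFP, an organophosphate that stands in for sarin), and received further rounds of corticosterone in the weeks before the tissue was taken. Control mice had no corticosterone and a saline injection.

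Glucocorticoids act through the glucocorticoid receptor, which moves to the nucleus when bound by hormone and binds short palindromic DNA sequences near its target genes. All 3 genes are classical targets that the receptor induces. Fkbp5 encodes FKBP51, a co-chaperone that lowers the receptor's affinity for hormone and so closes a feedback loop. Sgk1 encodes a serum- and glucocorticoid-regulated kinase that acts on ion channels, transporters, and forkhead transcription factors. Per1 encodes a period protein, a repressor in the circadian clock that glucocorticoids can also induce directly.

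The samples fell into 3 sets, read from the first part of their names, and the sets divide the conditions unevenly. Set 1 held 3 CORT + DFP mice of B6 with 2 CORT + DFP and 3 control mice of D2. Set 2 held the other 3 CORT + DFP mice of B6 with all 5 B6 controls, and set 3 held 4 CORT + DFP and 3 control mice of D2. No set had control mice of both strains, so strain and set cannot be told apart in the control mice. The D2 mice of set 1 were all 196 days old and those of set 3 all 147 days. Age and set therefore cannot be told apart within D2. The windows of a mouse summed to between 9776537 and 18428398 reads. The sex given for each mouse was in keeping with the X chromosome, as the mean of its windows relative to the autosomes was 0.06 to 0.32 in females and -0.69 to -0.36 in males on the log2 scale. As no expression was measured, the tissue could not be checked against its markers.

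The windows lay inside the genes and away from their promoters. In Fkbp5 (ENSMUSG00000024222, chr17:28399094-28517527, minus strand), windows 1 and 2 (chr17:28400101-28400250 and chr17:28400251-28400400) lay in the 3′ UTR, within exon 11 of 11 of transcript Fkbp5-201. Windows 3, 4, and 5 (chr17:28402501-28402650, chr17:28402651-28402800, and chr17:28402801-28402950) covered coding exon 10, with window 4 wholly exonic. Window 6 (chr17:28415701-28415850) was in intron 6, and window 7 (chr17:28415851-28416000) overlapped 132 bases of coding exon 6. The Sgk1 window (chr10:21899101-21899250) was far upstream of the start of transcript Sgk1-201, by 95.5 kb, but inside the annotated gene (ENSMUSG00000019970, chr10:21882184-21999903, plus strand). There it touched an exon of the long transcript Sgk1-211 and lay 16.8 kb from the nearest annotated transcript start. In Per1 (ENSMUSG00000020893, chr11:69095217-69109960, plus strand), windows 1 and 2 (chr11:69103051-69103200 and chr11:69103201-69103350) covered coding exon 11 of 23 of Per1-201, and windows 3 and 4 (chr11:69104551-69104700 and chr11:69104701-69104850) covered coding exon 17. Of the 12 windows, 8 held coding bases, 2 held UTR bases, and 0 lay within 1 kb of an annotated transcript start.

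Of the coding exons under the windows, 3 are shown from the GENCODE transcripts, 5′ to 3′ on the strand of the gene, with each CpG in capitals. The capitals mark sites whose methylation the capture could detect. The exons were chosen because they overlap the windows with the smallest p-values. The terms were strain (Per1 exon 11), CORT + DFP in B6 (Per1 exon 17), and CORT + DFP in D2 (Fkbp5 exon 10). The D2 window, Fkbp5 window 5, has 48 bases in the exon and 102 in an intron. CpGs in the intronic parts of the windows are not shown. Fkbp5 exon 10 (chr17:28402609-28402848) has 14 CpGs in 240 bases, Per1 exon 11 (chr11:69103104-69103257) has 8 in 154 bases, and Per1 exon 17 (chr11:69104634-69104813) has 10 in 180 bases.
Fkbp5 exon 10: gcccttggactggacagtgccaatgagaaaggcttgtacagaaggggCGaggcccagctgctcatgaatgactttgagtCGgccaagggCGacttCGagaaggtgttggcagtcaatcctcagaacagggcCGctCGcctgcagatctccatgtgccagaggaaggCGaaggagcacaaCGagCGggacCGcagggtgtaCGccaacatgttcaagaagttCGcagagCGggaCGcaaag
Per1 exon 11: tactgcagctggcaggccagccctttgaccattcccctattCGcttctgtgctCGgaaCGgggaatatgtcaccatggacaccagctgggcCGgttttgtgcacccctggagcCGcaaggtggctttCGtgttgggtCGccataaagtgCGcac
Per1 exon 17: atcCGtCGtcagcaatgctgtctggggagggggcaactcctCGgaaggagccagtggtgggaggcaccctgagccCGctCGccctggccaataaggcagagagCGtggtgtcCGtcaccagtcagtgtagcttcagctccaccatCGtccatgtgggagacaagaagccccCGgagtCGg

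The CpGs were unevenly divided over these windows. Of the CpGs of Fkbp5 exon 10, 9 fell wholly in window 4, 4 in window 3, and 0 in window 5. The remaining CpG lies across the border of windows 4 and 5. By the count in the deposited file, window 4 has 10 CpGs in all and window 5 has 3. Of those in Per1 exon 17, 7 fell in window 4 and 3 in window 3. The 8 CpGs of Per1 exon 11 were divided evenly, 4 to each window.

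None of the promoters had a window with values. RefSeq (GRCm38.p6) lists 9 promoters of the 3 genes, taken as the 250 bases before and 50 bases after each start, with 6 for Sgk1, 2 for Per1, and 1 for Fkbp5. Of these, 0 overlapped a window, against 945 of 32851 promoters of all genes (2.88%). The Fkbp5 promoter had 32 CpGs and lay 70.2 kb from the nearest of its windows, the Per1 promoters had 16 and 21 CpGs and lay 4.18 and 2.97 kb away, and the Sgk1 promoters had 3 to 28 CpGs and lay at most 95.5 kb away. The share of all promoters with a window was 0.648% with fewer than 5 CpGs, 5.6% with 5 to 9, 7.20% with 10 to 19, and 1.40% with 20 or more. A window was kept by the authors only with enough captured reads, so the levels at these promoters were not measured here.

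A full glucocorticoid response element, written as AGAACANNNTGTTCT and identical on both strands, was found in 1 of the 9 promoters. It lay in an Sgk1 promoter at chr10:21993701-21993715, 189 bases before the RefSeq start. It is shown because it is the kind of site through which the receptor acts on a target gene.
Sgk1 element: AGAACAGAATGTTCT
The element holds no CpG and was 94.5 kb from the only Sgk1 window. The same letters occurred in 3 of all 32851 promoters (0.00913%), and the shorter core GNACANNNTGTNC, which the full element contains, in 156 (0.475%). The match is a match of letters, and binding of the receptor was not measured.

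**Figure D1:**
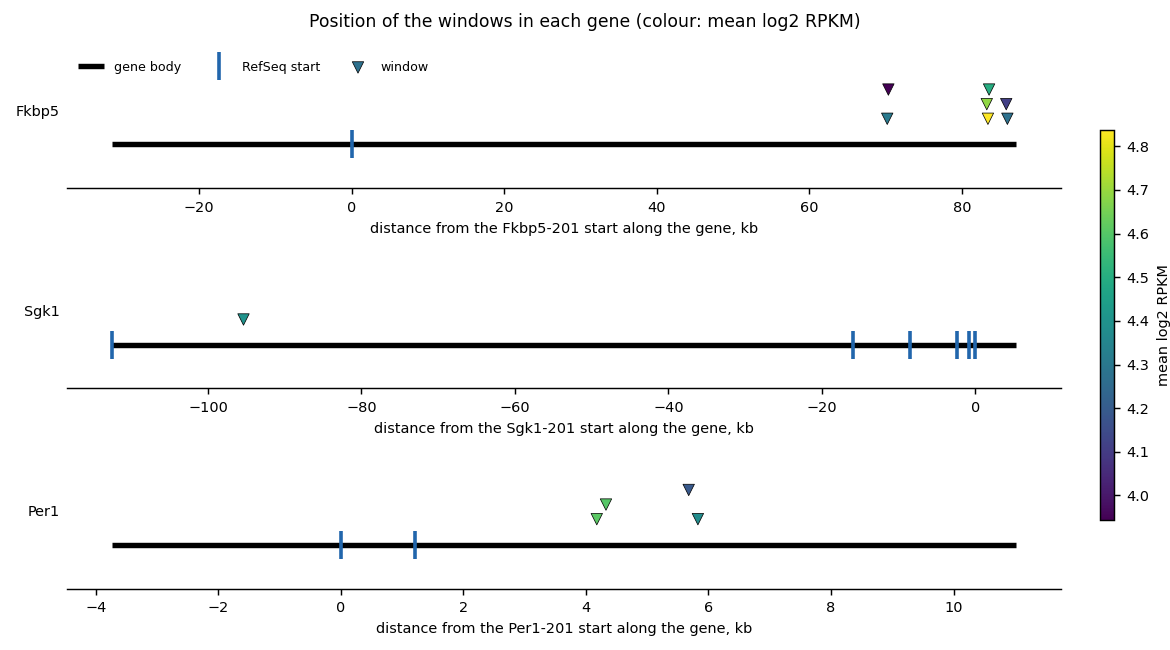
Position of the 12 windows (triangles, coloured by mean log2 RPKM and staggered in height so that neighbours can be seen) along the gene bodies of Fkbp5, Sgk1, and Per1 (black bars), as distance in kb from the start of the transcript that numbers the exons. Blue ticks mark the 9 RefSeq starts, and 0 of the windows lies at one.

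The levels of the windows were close to those of the methylome at large. The mean log2 RPKM over the 23 mice was between 3.94 and 4.84, with a median of 4.39, and the median of all windows was 4.38. The highest level was in window 4 of Fkbp5, the fully exonic window with 10 CpGs, at 4.84, which placed it above 85.2% of all windows. The lowest was in window 6 of Fkbp5, the intronic window with 3 CpGs, at 3.94, above 12.4% of all windows.

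CpG number alone did not set the order. Window 5 of Fkbp5 has 3 CpGs, as does window 6, but its level of 4.69 was above 88.6% of the 17398 autosomal windows with 3 CpGs, and that of window 6 above 11.7% of them. Window 5 adjoins the CpG-rich window 4. The Sgk1 window has the most CpGs of the 12, with 11, but its level of 4.40 was above only 25.7% of autosomal windows with that number. In Per1, windows 1 and 2 of exon 11 (6 CpGs each) stood at 4.61 and 4.60, and windows 3 and 4 of exon 17 (5 and 9 CpGs) at 4.19 and 4.38.

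**Figure D2:**
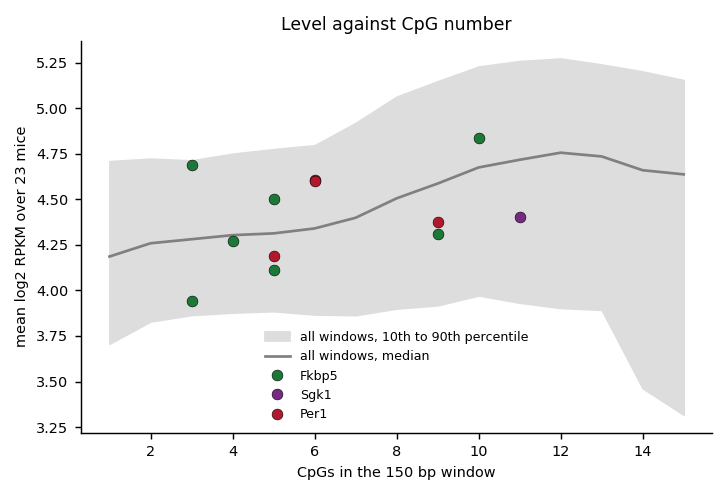
Mean log2 RPKM over 23 mice (vertical axis) against the number of CpGs in the window (horizontal axis) for the 12 windows, coloured by gene. The grey line and band give the median and the 10th to 90th percentile of all windows with that number of CpGs, and the 12 windows all lie inside the band.

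Adjacent windows were not independent measurements. Fragments were about as long as a window, and reads were extended to that length before counting, so 1 fragment can be counted in both of a pair. With the mean of each condition removed, the Pearson r over 23 mice was 0.79 for Fkbp5 windows 1 and 2, 0.79 for windows 3 and 4, 0.79 for windows 6 and 7, 0.82 for the pair in Per1 exon 11, and 0.87 for the pair in Per1 exon 17. The exception among adjacent windows was Fkbp5 windows 4 and 5, with an r of 0.35. Between windows that do not touch, r was -0.18 to 0.49 in Fkbp5 and 0.16 to 0.34 in Per1. These correlations share library and depth and are given as descriptions.

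The depth set the precision of each value. A window had between 13 and 92 reads per mouse, and a median of 39.5 over the medians of the 12 windows. At the mean depth of each window, counting error alone gives a log2 value an SD of 0.19 to 0.26. For a mouse with fewer reads than that mean it is larger. The SD left after the regression was 0.70 to 1.5 times the counting SD, with a median of 0.92, and the median of all windows was 1.10. The window that varied most beyond counting was window 2 of Fkbp5, in the 3′ UTR, at 1.5, followed by its neighbour window 1 at 1.13. The other 10 windows were between 0.70 and 1.04, so the spread between mice there was about the size that counting error gives.

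**Figure D3:**
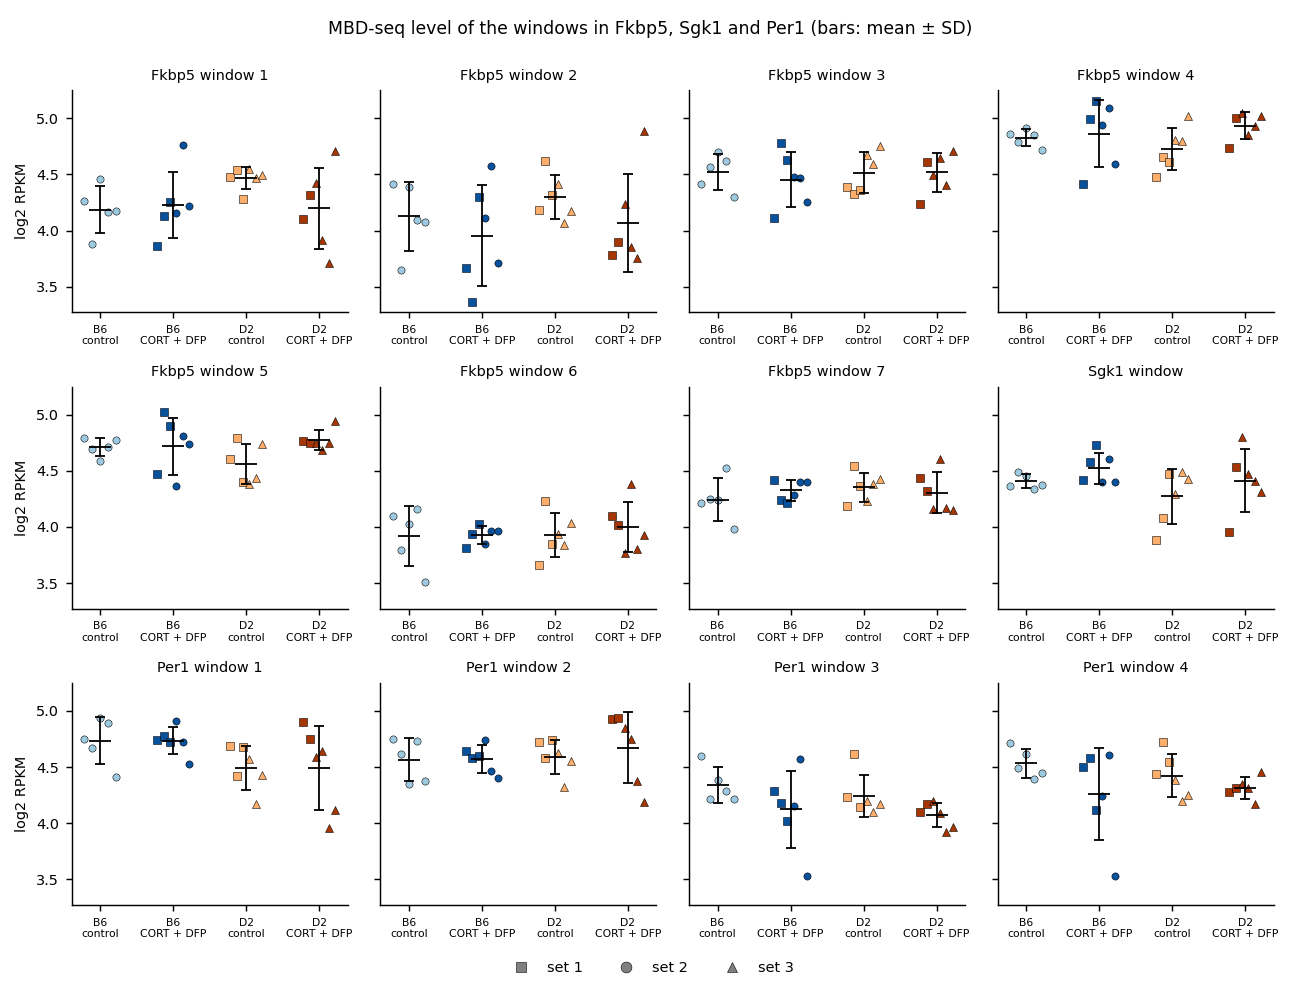
Level of each window (log2 RPKM, vertical axis) in each of the 23 mice, by condition (horizontal axis, with colour) and set (marker shape). Black bars are the mean ± SD of a condition. In each of the 12 windows the control mice of the strains overlap, as do CORT + DFP and control mice within each strain. Other pairs of conditions do not all overlap.

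Between the strains, none of the 12 windows differed in control mice at an adjusted p under 0.05. Each window was fitted by least squares on strain, treatment, the treatment-by-strain term, age, and sex, as in the study, and p-values were adjusted over all windows by Benjamini-Hochberg. At that threshold 25.4% of all windows differed, and 0 of the 12 did. At an unadjusted p of 0.05 or less it was 1 of 12, against 33.1% of all windows. The control mice of the strains overlapped in each of the 12, while 18.4% of all windows had no overlap. In bulk tissue and with reads mapped to the B6-derived reference, a strain difference in methylation, in cell make-up, and in sequence or mapping cannot be told apart.

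The window with the smallest strain p was Per1 window 1, in the first part of exon 11. The B6 control mice were at 4.75, 4.67, 4.94, 4.89, and 4.41, with a mean of 4.73 ± 0.21 (SD, n = 5). The D2 control mice ranged from 4.17 to 4.69 with a median of 4.50 and a mean of 4.49 ± 0.20 (SD, n = 6). The groups overlapped, with 3 of the 5 B6 mice above every D2 mouse and the lowest B6 mouse inside the D2 range. The estimate for D2 minus B6 was -0.36 ± 0.14 (SE), with a p of 0.0196 and an adjusted p of 0.0719. Without B6 control replicate 5, the lowest, the adjusted p was 0.0429, and without B6 control replicate 3 or 4 or D2 control replicate 5 the p was 0.0511 to 0.0599. With set in place of age the estimate was -0.15 with a p of 0.482, and without the age term it was -0.25 with a p of 0.0978. An exact two-sided permutation test of the control mice alone gave a p of 0.0866 for a difference of -0.24.

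The estimates of the other 3 Per1 windows were from -0.09 to -0.22, each with a 95% interval that spanned 0. The direction of window 2 was not stable. Its control mean was 4.59 in D2 and 4.57 in B6, a difference of 0.02, and its estimate of -0.09 became 0.01 without the age term and 0.04 with set in place of age.

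In Fkbp5 the strain estimates ran in both directions, with 5 above 0 and 2 below. Window 1, in the 3′ UTR, had the largest, at 0.36 ± 0.17 (SE) with a p of 0.0541 and an adjusted p of 0.161. The B6 control mice were at 4.27, 3.88, 4.46, 4.16, and 4.17, and the D2 control mice between 4.28 and 4.55 with a median of 4.49. The ranges overlapped through the highest B6 mouse and the lowest D2 mouse. The exact permutation test of the control mice gave a p of 0.0130 for this window, the smallest of the 12, for a difference of 0.28, and its smallest possible value was 0.00216. In the regression the p of window 1 was 0.0400 with limma, 0.0226 with quantile normalization, 0.0333 with centring on the median, and 0.0145 with reads as a covariate. It was 0.0986 without the age term and 0.0585 with set in place of age. Of 23 fits with 1 mouse left out, 4 had a p of 0.05 or less, at 0.0150 to 0.0495. The largest p of these fits was 0.154, without B6 control replicate 2.

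For Sgk1, B6 control mice were tightly grouped, at 4.37, 4.49, 4.46, 4.34, and 4.37 (mean 4.41 ± 0.063, SD, n = 5). D2 control mice spread from 3.88 to 4.49 with a median of 4.36 (mean 4.27 ± 0.25, SD, n = 6). The 2 lowest D2 mice, at 3.88 and 4.08, were both of set 1 and had 20 and 25 reads. The strain estimate was -0.08 ± 0.14 (SE), with a 95% interval from -0.37 to 0.20 and an adjusted p of 0.755.

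For CORT + DFP in B6, no window passed at an adjusted p under 0.05, in these genes or elsewhere, with 0% of all windows called. At an unadjusted p of 0.05 or less there were 2 of the 12, both lower in CORT + DFP mice, and both in exon 17 of Per1. The share of all windows at that p was 5.86%, and 3.06% were lower. As the 2 windows adjoin, can share fragments, and varied together (r = 0.87), they are read here as 1 place in the genome. The share of fragments counted in both was not measured. The B6 groups overlapped in each of the 12, while 0.352% of all windows had no overlap. With limma the count at an unadjusted p of 0.05 or less was also 2.

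In Per1 window 4, the B6 control mice were at 4.72, 4.49, 4.61, 4.40, and 4.45 (mean 4.53 ± 0.13, SD, n = 5). The CORT + DFP mice ranged from 3.53 to 4.60 with a median of 4.37 (mean 4.26 ± 0.41, SD, n = 6). The groups overlapped, with 3 of the CORT + DFP mice, at 4.50, 4.58, and 4.60, inside the control range. The estimate was -0.43 ± 0.16 (SE), with a p of 0.0148 and an adjusted p of 0.831. In window 3, control mice were at 4.59, 4.22, 4.39, 4.28, and 4.21, and CORT + DFP mice ranged from 3.53 to 4.57 with a median of 4.17. Its estimate was -0.32 ± 0.15 (SE), with a p of 0.0398 and an adjusted p of 0.847.

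The lowest of the CORT + DFP mice weighed on both windows. This mouse, replicate 6 and a male of set 2, had 21 reads and a level of 3.53 in each of windows 3 and 4, and it was also the lowest of its group in windows 1 and 2 of Per1, at 4.53 and 4.40. Without it, the estimate was -0.19 with a p of 0.172 in window 4 and -0.13 with a p of 0.343 in window 3. Window 3 also lost a p of 0.05 or less without any 1 of 6 other mice, with p-values of 0.0508 to 0.102. Window 4 kept a p of 0.05 or less in 22 of 23 fits with 1 mouse left out. The age term also mattered, since the controls were all 145 days old and the 3 CORT + DFP mice of set 1 were 218 to 226 days old. Without age the estimates were -0.28 with a p of 0.0803 in window 4 and -0.23 with a p of 0.10 in window 3. With set in place of age they were -0.44 with a p of 0.0222 and -0.30 with a p of 0.0821. Within set 2, where all B6 mice were of 1 age, the CORT + DFP mean was lower by 0.41 in window 4 and by 0.25 in window 3, with exact permutation p-values of 0.107 and 0.321, and the smallest p possible there is 0.0179. Set 1 had no B6 control. Over all B6 mice, an exact permutation test without covariates gave 0 of 12 windows at 0.05 or less, the smallest being 0.121 in the Sgk1 window.

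**Figure D4:**
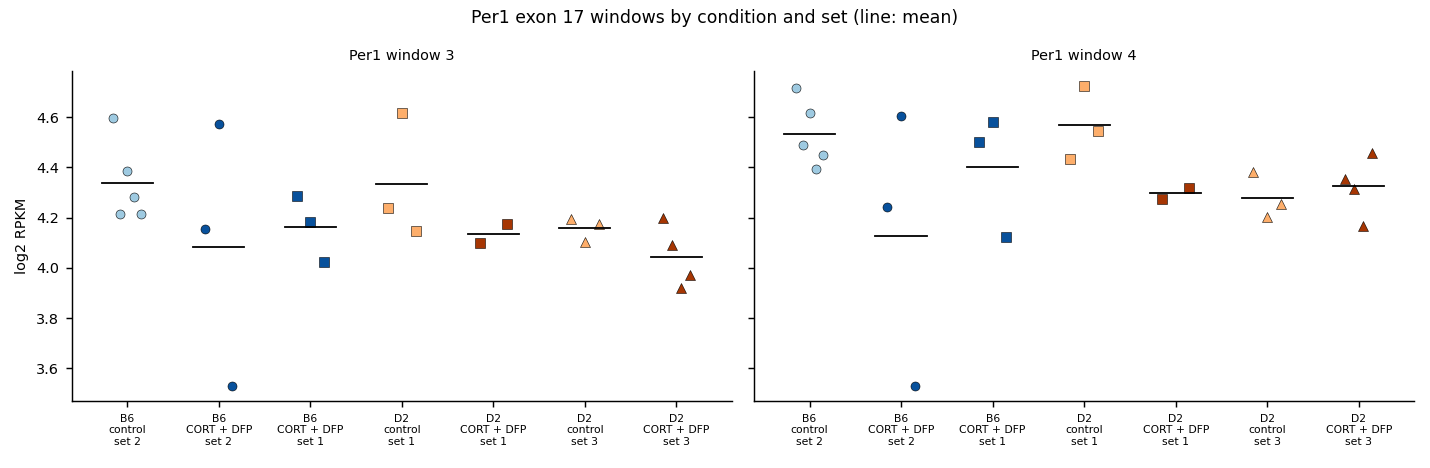
Level of Per1 windows 3 and 4 in exon 17 (log2 RPKM, vertical axis) for each mouse by condition and set (horizontal axis), with the mean of each as a line. The B6 CORT + DFP mouse at 3.53 is the lowest point in both panels, and the other 5 mice of that condition lie between 4.02 and 4.60.

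The other Per1 windows, in exon 11, gave estimates of -0.17 ± 0.15 and -0.16 ± 0.12 (SE) for CORT + DFP in B6, and these depended on the age term. Without it they were -0.01 and -0.01, and the CORT + DFP mean over all B6 mice was higher than the control mean by 0.0033 in window 1 and by 0.0049 in window 2. Of the Fkbp5 windows, 4 estimates were above 0 and 3 below, from -0.02 to 0.15, and the smallest p was 0.336, in window 4 of exon 10. The B6 control mice of that window were within 4.71 to 4.91 and the CORT + DFP mice ranged on both sides of them, from 4.41 to 5.15. Without replicate 6 of B6 CORT + DFP, the mouse that was lowest in Per1, its estimate rose from 0.13 to 0.31, with a p of 0.0177. The Sgk1 window had an estimate of 0.19 ± 0.14 (SE) with a 95% interval from -0.12 to 0.49. Its CORT + DFP mice were between 4.40 and 4.73 with a median of 4.50, which overlapped the upper part of the control range.

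For CORT + DFP in D2, again no window passed at an adjusted p under 0.05 (0% of all windows). Of the 12 windows, 1 had an unadjusted p of 0.05 or less and was higher in CORT + DFP mice, where 5.33% of all windows had such a p and 2.63% were higher. This was window 5 of Fkbp5, at the edge of exon 10. The D2 groups overlapped in each of the 12, while 0.156% of all windows had no overlap.

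In Fkbp5 window 5, the D2 control mice ranged from 4.38 to 4.79 with a median of 4.52 (mean 4.56 ± 0.18, SD, n = 6). The CORT + DFP mice ranged from 4.68 to 4.95 with a median of 4.75 (mean 4.77 ± 0.090, SD, n = 6). The CORT + DFP mice were the more uniform, and 4 of the 6 controls were below all of them. The estimate was 0.22 ± 0.09 (SE), with a p of 0.0254 and an adjusted p of 0.932, and the exact permutation test of the D2 mice gave a p of 0.0368. Within set 1 the difference was 0.16 and within set 3 it was 0.26, with exact permutation p-values of 0.4 and 0.0571, where the smallest possible are 0.1 and 0.0286. With limma's moderated statistics the p of the estimate was 0.0636, and without D2 control replicate 3 or 4 or CORT + DFP replicate 6 it was 0.0549 to 0.0687.

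The neighbour of that window in exon 10, window 4, had an estimate of 0.19 ± 0.11 (SE) in D2 and a p of 0.109. It was higher within both sets, by 0.28 in set 1 and 0.09 in set 3, and in D2 mice alone with set as a term its estimate was 0.17 with a p of 0.0276. Window 3, on the other side of the exon, had an estimate of -0.01 ± 0.11 (SE). In the 3′ UTR the estimates were of the opposite sign, at -0.29 ± 0.15 in window 1, with a p of 0.0766, and -0.26 ± 0.22 in window 2. Without D2 CORT + DFP replicate 6 the estimate of window 1 was -0.38 with a p of 0.0203.

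The D2 CORT + DFP mice were widely spread in the 3′ UTR windows. In window 1 they ranged from 3.71 to 4.71 with a median of 4.21, while 5 of the 6 controls lay between 4.46 and 4.55. In window 2, 1 mouse was at 4.89 with 68 reads and the other 5 were between 3.76 and 4.24. The same mouse, replicate 6 and a male of set 3, was the highest in both windows, and the lowest in both was replicate 5, also a male of set 3. The Fkbp5 windows of exon 6 and its border had estimates of 0.07 ± 0.12 in window 6 and -0.05 ± 0.09 in window 7.

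For Per1 in D2, 2 estimates were above 0 and 2 below, from -0.15 to 0.11, with p-values of 0.232 or more. In exon 11 the CORT + DFP mice of D2 separated by set, which in D2 is also a split by age. The 2 mice of set 1 were at 4.90 and 4.75 in window 1 and at 4.93 and 4.94 in window 2. The 4 mice of set 3 were between 3.96 and 4.65 in window 1 and between 4.19 and 4.85 in window 2, with the 2 males lowest in each. In exon 17, window 3 had an estimate of -0.15 ± 0.12 (SE), and the exact permutation p was 0.0519 for a difference of -0.17. The Sgk1 window had an estimate of 0.12 ± 0.12 (SE) in D2, with CORT + DFP mice from 3.95 to 4.80 and a median of 4.44.

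The interaction, which asks whether the effect of CORT + DFP in D2 differs from that in B6, was not called in any window. At an adjusted p under 0.05 it was 0% of all windows, and at an unadjusted p of 0.05 or less 0 of 12, against 6.82% of all windows. With limma the count at an unadjusted p of 0.05 or less was also 0. The smallest p was 0.0912, for window 1 of Fkbp5 at -0.44 ± 0.25 (SE). All 4 Per1 estimates were above 0, from 0.17 to 0.35, with window 4 the largest at 0.35 ± 0.21 (SE) and a p of 0.118. Their intervals spanned 0 in each. Their size depended on the age term, and in windows 3 and 4 on 1 mouse. Without replicate 6 of B6 CORT + DFP the estimate was -0.04 in window 3 and 0.09 in window 4. It rose without that mouse from 0.20 to 0.22 in window 1 and from 0.27 to 0.30 in window 2. Without age it was 0.01 in window 1, 0.09 in window 2, 0.06 in window 3, and 0.17 in window 4. In window 1 the plain difference between CORT + DFP and control means was 0.0033 in B6 and 0.0036 in D2. Other mice moved the p the other way, as window 4 had a p of 0.0196 without B6 CORT + DFP replicate 5, and window 2 had 0.0461 and 0.0439 without B6 CORT + DFP replicate 4 or D2 CORT + DFP replicate 6. In Fkbp5, window 1 had a p of 0.0457 without the latter mouse and 0.0377 with reads as a covariate, and window 5 had 0.0451 without B6 CORT + DFP replicate 5. With other single mice left out the p rose as well. It reached 0.260 in Fkbp5 window 1, 0.294 in Fkbp5 window 5, 0.247 in Per1 window 2, and 0.601 in Per1 window 4. The Sgk1 interaction was -0.06 ± 0.19 (SE).

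**Figure D5:**
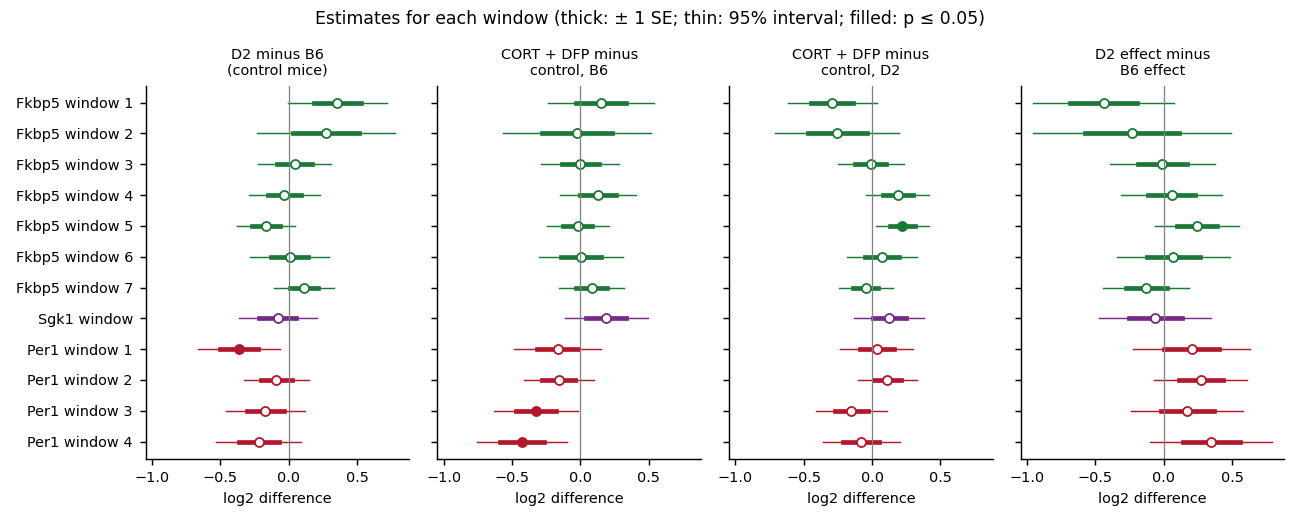
Estimates of the regression for the 12 windows, as log2 differences (horizontal axis), for strain in control mice, for CORT + DFP in B6 and in D2, and for the interaction. Thick bars are 1 SE on each side, thin bars are 95% intervals, and filled points mark the 4 estimates with an unadjusted p of 0.05 or less.

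Averaged over its windows, each gene had ranges over the mice that overlapped between all 4 conditions. Fkbp5 was at 4.41 ± 0.10 in D2 control, 4.40 ± 0.14 in D2 CORT + DFP, 4.36 ± 0.13 in B6 control, and 4.35 ± 0.17 in B6 CORT + DFP mice (mean log2 RPKM ± SD). Sgk1 was at 4.52 ± 0.14 in B6 CORT + DFP, 4.41 ± 0.28 in D2 CORT + DFP, 4.41 ± 0.063 in B6 control, and 4.27 ± 0.25 in D2 control mice. Per1 was at 4.54 ± 0.13 in B6 control, 4.44 ± 0.14 in D2 control, 4.42 ± 0.22 in B6 CORT + DFP, and 4.39 ± 0.19 in D2 CORT + DFP mice. The conditions are listed from high to low, and each step to the next was smaller than the larger SD of the pair. Steps between neighbours in a sorted list are small by construction, and they do not compare conditions further apart. From the same regression, the gene level of Per1 differed by -0.21 ± 0.092 (SE) between strains and by -0.27 ± 0.097 for CORT + DFP in B6. Leaving out replicate 6 of B6 CORT + DFP brought the latter to -0.17. Without the age term the Per1 estimates were -0.12 between strains and -0.13 for CORT + DFP in B6. For CORT + DFP in D2 the estimate was -0.02 ± 0.082. The estimates of Fkbp5 were 0.08 ± 0.088, 0.05 ± 0.093, and -0.02 ± 0.079 in the same order. No p is given for these averages.

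The number of windows also differed between the genes. Fkbp5 and Sgk1 are of similar length, 118.4 and 117.7 kb, but Fkbp5 had 7 windows and Sgk1 had 1. Among 2070 protein-coding genes within 1.5 times the length of Fkbp5, the median was 4 windows, and 62.3% had fewer than Fkbp5. Among 2082 such genes for Sgk1, 20.7% had 0 windows. Per1, at 14.7 kb, had 4 windows, where 4674 genes of like length had a median of 1 and 74.3% had fewer.

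The genes whose mean levels followed those of each gene most closely over the 23 mice were sought among 5296 protein-coding genes with 5 or more windows. These were Mvp, Cfap77, and Cpt1b for Fkbp5 (Pearson r of 0.60, 0.59, and 0.58, against a median of 0.06), and Nfkbil1, Lrp10, and Mvk for Per1 (0.75, 0.75, and 0.74, against 0.15). For Sgk1, with its single window, they were Fam124a, Pcdhb17, and Pcdhb15 (0.78, 0.71, and 0.71, against -0.01). The points share libraries, depth, and strain, and the values are descriptions.

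Other genes of these pathways gave few calls as well. Of 40 genes in 4 lists, 28 had at least 1 window in the gene or within 5 kb, for 163 windows. No window of any list was called for CORT + DFP in either strain or for the interaction at an adjusted p under 0.05. For strain in control mice the lists had 3 of 36 windows called among genes that glucocorticoids induce, all lower in D2, 1 of 8 among receptor chaperones and immunophilins, higher in D2, 1 of 46 in the SGK family and its targets, lower in D2, and 5 of 73 among clock genes, 1 higher and 4 lower in D2. Beside the 25.4% of all windows, these are shares of 8.33%, 12.5%, 2.17%, and 6.85%.

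The strain calls of the lists fell on a few genes, which are named here after their values were seen. Of the clock genes, Per3, a paralog of Per1, had 4 of its 20 windows lower in D2, the strongest at -1.09 ± 0.19 (SE) with an adjusted p of 0.000246. Sgk3, a paralog of Sgk1, had 1 of 3 windows lower in D2 by an estimate of -1.83 ± 0.23 (SE). Cdkn1a, a cell-cycle inhibitor, had 2 of 6 lower, the strongest at -1.26 ± 0.22 (SE), and the single window of Hspa8, a constitutive heat shock chaperone, was higher in D2 by 1.00 ± 0.15 (SE). The other calls were 1 window each in Arrdc2, at -0.40, and Clock, at 0.40. Of the called windows the smallest estimate was in Per3, at -0.25, and the largest strain estimates of the 12 windows in Fkbp5, Sgk1, and Per1 were -0.36 and 0.36.

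At an unadjusted p of 0.05 or less, CORT + DFP in B6 gave 2 of 36, 1 of 8, 3 of 46, and 3 of 73 windows in the 4 lists in the order above. The shares of 5.56%, 12.5%, 6.52%, and 4.11% stand beside 5.86% of all windows. In D2 the counts were 0, 1, 0, and 1, beside 5.33% of all windows.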

How the data were processed

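The prefrontal cortex methylome of 23 mice was assayed by MBD-seq. The authors aligned reads with STAR 2.5.0a to GRCm38, counted them in 150 bp windows with MEDIPS, kept windows with CpGs and enough reads, and deposited log2 RPKM normalized by edgeR 3.34.1 library sizes with a prior count added, beside the CpG number of each window. Here the whole reads behind the log2 values were recovered (100% within 0.1 of a read) to give depth and counting SD. Least squares on log2 RPKM (treatment by strain, sex, age) was fitted to all 210191 windows, adjusted by Benjamini-Hochberg, with limma 3.58.1 in R 4.3.3 as an alternative. Permutation tests were exact and two-sided (scipy 1.17.1, numpy 2.4.6, pandas 2.3.3, Python 3.11.15). Figures were drawn with matplotlib 3.10.9.

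The members and gene lists were chosen with earlier results of these data known. The windows singled out per gene were those called for strain, with the smallest p for each treatment term, with the highest level, or nearest a start. Likeness was the Pearson r of gene means, and pathway lists were given as counts. Exons came from GENCODE M21 and promoters from RefSeq. A full-genome sequence was not used here, so sequences of whole windows are not given. Nothing in the labels ties mice to litters. The p-values set each difference against the spread of values between these mice, which includes counting error. Alternatives were limma, log2(RPKM + 1), quantile normalization, centring on the median, set in place of age, no age, a filter of more than 3 reads in each strain, parts of the mice, and each mouse left out. A covariate for total reads, a floor on the residual SD at the counting SD, and B6 mice alone were chosen after seeing the data.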

Additional observations from a re-analysis of the deposited data

Results flagged for a closer look

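In 3 of 56 groups of 5 or 6 mice, 1 mouse stood apart from its group by the ratio of its gap to the range (Dixon's 95% critical value), and chance gives about 1 in 20 groups, or 2.8 of 56. In Fkbp5 window 1 (3′ UTR), the lowest D2 control mouse, a male of set 1, was at 4.28, with the other 5 between 4.46 and 4.55. In Fkbp5 window 5 (exon 10), the highest D2 CORT + DFP mouse, a male of set 3, was at 4.95, with the other 5 between 4.68 and 4.76. In Per1 window 3 (exon 17), the highest D2 control mouse, a male of set 1, was at 4.62, with the other 5 between 4.10 and 4.24.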

How the results depend on the processing

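At an adjusted p under 0.05, 0 of the 12 windows was called in any comparison under any of the settings, with 1 exception. Without replicate 5 of the B6 control mice, Per1 window 1 was called for strain, with an adjusted p of 0.0429, so that the count ranged from 0 to 1 with 1 mouse left out. The counts at an unadjusted p of 0.05 or less moved more, and the cause was not tested. For strain the count was 1, and it was 2 with limma, quantile normalization, centring on the median, or reads as a covariate, 0 with set in place of age or with no age term, and 0 to 2 with 1 mouse left out. For CORT + DFP in B6 the count was 2, and it was 1 with centring, set in place of age, reads as a covariate, the residual SD kept at the counting SD, or B6 mice alone, 0 with no age term or set 2 alone, and 1 to 2 with 1 mouse left out. For CORT + DFP in D2 the count was 1, and it was 0 with limma, quantile normalization, or the SD kept at the counting SD, 2 in D2 mice alone with set as a term (windows 4 and 5 of Fkbp5), and 0 to 1 with 1 mouse left out. For the interaction it was 0, and 1 with reads as a covariate, and 0 to 2 with 1 mouse left out. Of 468 estimates of single windows under the settings that leave out no single mouse, 448 kept their side of the threshold, 14 passed from called to not called, 6 the other way, and none that was called in either fit changed sign. The gene averages moved by less than 1 SD in 45 of 45 estimates, which did not include a fit without age. The residual SD of these averages was 0.14 to 0.21, larger than most of the estimates. A limit of 1 SD therefore says little about their stability. A window had 13 to 92 reads per mouse, which limits the precision of each value.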
